A study of Mus musculus with 9 samples.

Results

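The genes that carry the insulin and IGF1 signal from receptor to PI3K, AKT, FOXO and mTOR were examined in the whole uterus of mice with and without uterine *Wnk1*. The group held 37 genes, chosen by name for their place in the pathway, out of 31274 entries in the table of expression values. The choice was made with earlier results of these data known. All 37 were found and all 37 passed the filter on low values described below, although *Irs2* and *Inpp4b* passed it only through the control group. RNA-Seq had been run on uteri of C57BL/6 mice on pseudopregnancy day 4.5 (PPD 4.5), the receptive phase, with 1 library for each of 4 *Wnk1f/f* and 5 *Wnk1d/d* mice. The females were virgins of 6 to 10 weeks that had been mated with vasectomized males, so that no embryos were present. Both genotypes carried *Wnk1* alleles with loxP sites around exon 2, and the *Wnk1d/d* mice also carried the *PGRCre/+* knock-in, which expresses Cre recombinase from the progesterone receptor locus and removes that exon in cells that express the receptor. In the paper's naming, floxed offspring with the knock-in are *Wnk1d/d*, and it does not state separately whether the controls carried any Cre allele. Effects of a knock-in present only in *Wnk1d/d* mice could not be told apart from those of the loss of *Wnk1*. The same driver is active in the ovary and the pituitary, and cells of the uterus that do not express the receptor keep an intact *Wnk1*.

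In this pathway, activated insulin and IGF1 receptors phosphorylate the docking proteins IRS1 and IRS2, which recruit the lipid kinase PI3K. The lipid that PI3K makes brings AKT to the membrane, where it is phosphorylated and activated, and lipid and protein phosphatases oppose this. Active AKT holds FOXO transcription factors out of the nucleus, inhibits GSK3 and the death-promoting protein BAD, and relieves the block that the TSC complex places on RHEB and mTOR complex 1 (mTORC1), which promotes translation. FOXO factors in turn drive genes of cell cycle arrest, cell death and fasting metabolism, together with *Insr* and *Irs2* themselves. In the uterus, IGF1 is a known mediator of estrogen-driven growth and FOXO1 is known for its part in the receptive epithelium and in the decidual response of the stroma. Transcript levels do not show phosphorylation or the place of a protein in the cell.

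The members are described below by their order in the pathway. Short stretches of promoter come first, for the members that hold one of the sequence elements known to bind FOXO proteins, because the same proteins are members and regulators of members. The 250 bases before each RefSeq start (build GRCm38.p6) were searched on both strands for GTAAACA, the core of the DAF-16 family member binding element, and for CAAAACA, the core of the insulin response element. A stretch could hold both elements in overlap, and none of those printed here does. The first was found in 3.17% of 32851 mouse promoters and the second in 5.56%. Of the 37 members, 32 had a promoter entry (not *Insr*, *Foxo4*, *Deptor*, *Rps6kb2* and *Eif4ebp1*), with 45 promoters in all. In 3 of these genes a promoter held the first element and in 2 the second. Members were counted by gene, so these counts are not on the same footing as the shares per promoter. In the lines that follow capitals mark the element, read 5′ to 3′ on the strand of the gene. A match is a description of the sequence and not a bound site.
*Irs2*, chr8:11008949-11008977, minus strand, 37 bases before the start: gagtcacgtgtTGTTTTGctcttagttca
*Irs1*, chr1:82291533-82291561, minus strand, 111 bases before the start: gctccgtcacgTGTTTTGctcctctggag
*Irs1*, chr1:82291454-82291482, minus strand, 32 bases before the start: cagccgccgctTGTTTTGgttggggctct
*Bcl2l11*, chr2:128125800-128125828, plus strand, 227 bases before the start: aagacactaggGTAAACAcgccggggtgg
*Akt1*, chr12:112675028-112675056, minus strand, 161 bases before the start: atctaccctctTGTTTACactcctggtga
*Pik3cg*, chr12:32208545-32208573, minus strand, 92 bases before the start: tttttcctaaaGTAAACAaatgatcctcc
The 5 promoters that held an element belonged to genes that were lower in *Wnk1d/d* uteri (*Irs2* and *Bcl2l11*), higher (*Akt1*) or not past the test (*Irs1* and *Pik3cg*), with values below. *Irs1* and *Irs2* shared the insulin response element in the same orientation and had opposite signs of difference.

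Expression was given as FPKM, the number of sequenced fragments of a gene relative to the length of its exons and to the total of the library. Differences are given as the log2 fold change on the log2(FPKM + 1) scale, *Wnk1d/d* minus *Wnk1f/f*, with its standard error (SE), from limma with Benjamini-Hochberg adjustment over the 14728 genes whose mean exceeded 1 FPKM in either genotype. On this scale the change of genes with low FPKM is understated. Genes were counted as differentially expressed (DEGs) when the adjusted p was under 0.05 and the genotype means differed by 1.5 times or more. FPKM holds no absolute depth. Low values moved in steps that gave the relative worth of 1 fragment, and over the 9 libraries this worth differed by at most 1.38 times. The estimate rested on 62 entries, kept because their values above 0 lay close together across libraries. It could therefore not show a large difference in depth. *Wnk1* itself had 43.4 to 47.3 FPKM in *Wnk1f/f* and 29.9 to 33.9 FPKM in *Wnk1d/d* uteri, with reads from the retained exons included.

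Markers of cell types moved with genotype. Among all genes tested, 10.3% were DEGs, 22.1% passed by adjusted p and 19.9% had no overlap between genotypes. Of 10 endothelial markers 8 were DEGs with lower FPKM in *Wnk1d/d* uteri and all 10 had no overlap, and their summed level was 705 to 770 FPKM in controls and 302 to 579 FPKM in *Wnk1d/d* uteri. All 8 smooth muscle markers were DEGs with higher FPKM, with sums of 2990 to 6728 FPKM against 7537 to 14185 FPKM. Stromal markers moved both ways by adjusted p, with 6 of 8 lower and 2 higher (*Col1a1* and *Col3a1*). Their sums overlapped, although 7 of the 8 markers had no overlap between genotypes. Epithelial markers were higher in 2 of 8, and 0 of 9 tested leukocyte markers passed the limma test, with 1 at an unadjusted p under 0.05 (sums of 242 to 479 FPKM and 214 to 319 FPKM). *Wnk1f/f* replicate 4 had the highest leukocyte sum and a liver marker sum of 181 FPKM, against at most 15.4 FPKM in the other controls and 14.9 to 49.7 FPKM in *Wnk1d/d* uteri, with the hepatocyte product *Alb* at 77.7 FPKM in that library and at most 1.5 FPKM in the rest. *Wnk1d/d* replicate 2 had the highest endothelial and the lowest smooth muscle sum of its genotype. In *Wnk1d/d* replicate 4 a single entry held 70.3% of the summed FPKM. The median log2 level of that library over the tested genes (3.79) was still close to the 3.80 to 3.82 of the other libraries. Without that library the members held the same 6 DEGs, but 9 in place of 12 passed by adjusted p (*Akt1*, *Foxo1* and *Rptor* no longer did). In whole tissue, fewer cells of a type and less RNA per cell cannot be told apart, and the part of these shifts in the results below was not tested beyond leaving out libraries.

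**Figure D1:**
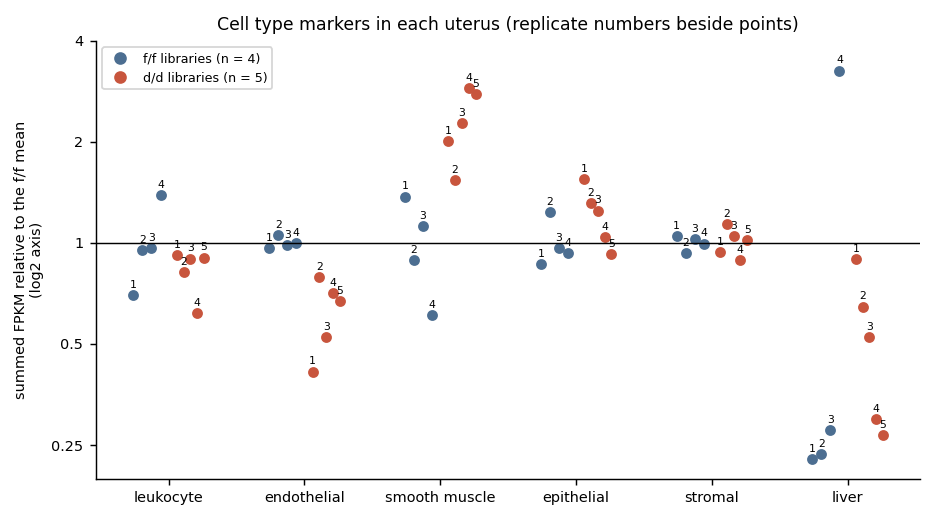
Summed FPKM of 6 lists of cell type markers in each library, relative to the mean of the 4 *Wnk1f/f* libraries (log2 axis), with the replicate number beside each point. Endothelial sums were below and smooth muscle sums above the controls in all 5 *Wnk1d/d* libraries, and the liver sum of *Wnk1f/f* replicate 4 stood apart.

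Across the 37 members, 6 were DEGs with lower FPKM in *Wnk1d/d* uteri (16.2%) and 0 were DEGs with higher FPKM in the limma fit. At an unadjusted p under 0.05, 8 members were higher and 8 lower. The share of all genes at that unadjusted threshold was not counted. Of all genes tested, 10.3% were DEGs, 5.18% lower and 5.09% higher. The 6 were the receptors *Igf1r* and *Insr*, the docking protein gene *Irs2*, the PI3K subunit *Pik3cd*, the death-promoting FOXO target *Bcl2l11* and the mTOR inhibitor *Deptor*. By adjusted p alone, without the fold criterion, 7 members were lower (18.9%) and 5 higher (13.5%), against 11.0% and 11.1% of all genes, and 25 did not pass. The smaller changes that passed were a fall of *Foxo4* and rises of *Pik3r3*, *Rheb*, *Akt1*, *Foxo1* and *Rptor*. Genotypes did not overlap for 10 members (27%), 7 lower and 3 higher, where 19.9% of all genes did not overlap. The median log2 fold change of the members was -0.07 and that of all genes 0.00, and the median absolute change was 0.18 for members and 0.19 for all genes. The count of lower DEGs was 3 without *Wnk1f/f* replicate 4 (*Igf1r*, *Insr* and *Irs2*) and 7 without *Wnk1d/d* replicate 2, when *Foxo3* joined. The whole table held 1039 and 1870 DEGs in those fits, in place of 1513. *Pik3r3* was a higher DEG without *Wnk1f/f* replicate 3. The count higher by adjusted p was between 1 and 6 when each library was left out, with 1 (*Pik3r3*) without *Wnk1f/f* replicate 4.

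**Figure D2:**
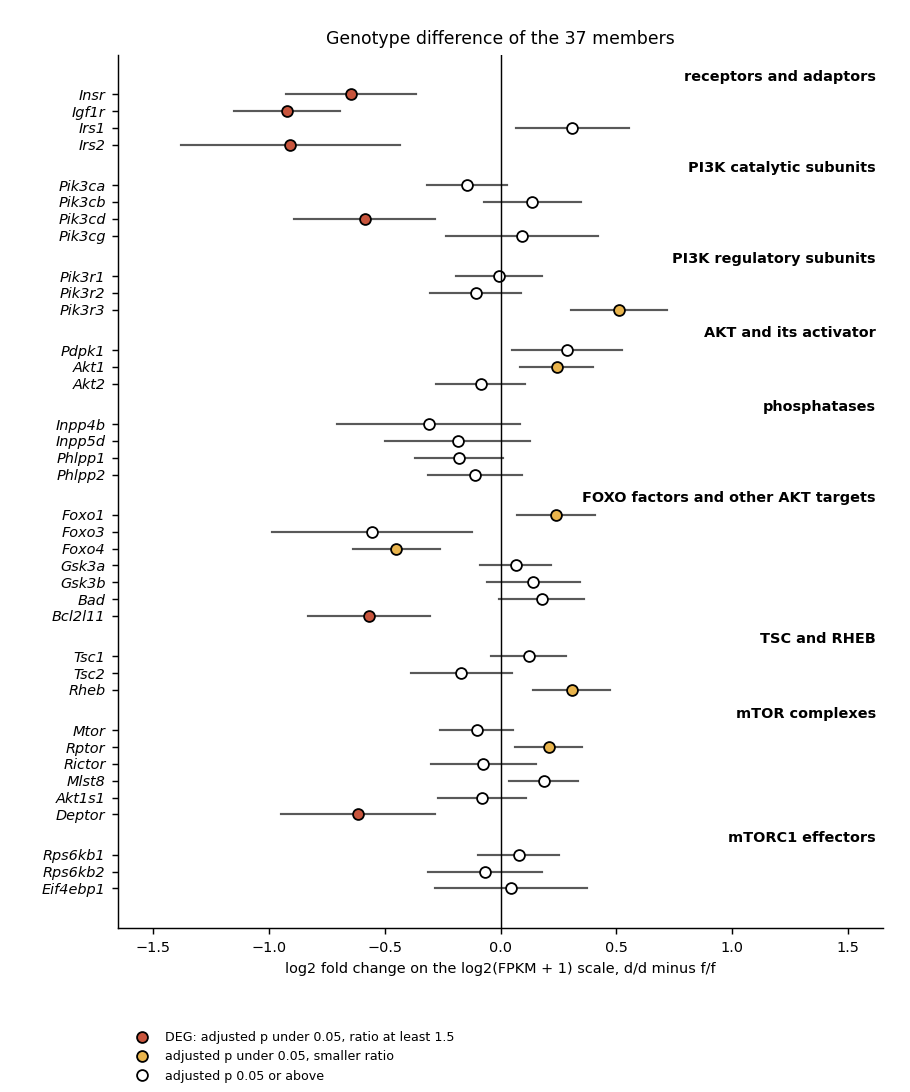
Log2 fold change of the 37 members (x axis, log2(FPKM + 1) scale, *Wnk1d/d* minus *Wnk1f/f*, n = 5 and 4) with 95% confidence intervals from limma, ordered by place in the pathway. The red points left of 0 are the 6 lower DEGs, 3 of them among the 4 receptors and adaptors, and no red point lies right of 0.

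The receptor end of the pathway held the largest differences among the members. *Igf1r*, the IGF1 receptor (mm10 chr7:67952827-68233668, plus strand), had 18.6, 15.5, 15.5 and 18.2 FPKM in *Wnk1f/f* libraries 1 to 4 and 8.05, 10.6, 7.42, 8.21 and 8.18 FPKM in *Wnk1d/d* libraries 1 to 5. Every *Wnk1d/d* library was below every control, and *Wnk1d/d* replicate 2 was the highest of its genotype. The mean fell to 0.501 of the control mean (log2 fold change -0.92, SE 0.10, limma adjusted p = 0.00176), and its adjusted p was under 0.05 in all 19 alternative fits. With a fold criterion of 2 it was just short of a DEG. *Insr*, the insulin receptor (chr8:3122061-3279617, minus strand), had 13.25, 11.95, 14.53 and 14.96 FPKM in controls and 6.95, 10.5, 6.8, 8.85 and 9.23 FPKM in *Wnk1d/d* uteri. The genotypes again did not overlap, with *Wnk1d/d* replicate 2 nearest the controls (ratio 0.619, log2 fold change -0.64, SE 0.13, limma adjusted p = 0.0098).

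The docking proteins differed from each other. *Irs2* (chr8:10984681-11008458, minus strand) had 2.57, 1.92, 1.53 and 3.71 FPKM in controls and 0.65, 1.46, 0.38, 0.82 and 0.75 FPKM in *Wnk1d/d* uteri. The highest *Wnk1d/d* library, replicate 2, was just below the lowest control, and the control group was the only one with a mean above 1 FPKM. The ratio was 0.334 (log2 fold change -0.91, SE 0.21, limma adjusted p = 0.0172). Because *Irs2* entered the test only through the group in which it was high, the counts were also taken without such genes. This left 5 lower DEGs among 35 members. The share of all genes under the same restriction was not counted. *Irs1* (chr1:82233101-82291416, minus strand) had 11.98, 9.09, 11.45 and 11.65 FPKM in controls and 15.5, 11.5, 13.3, 15.9 and 13.5 FPKM in *Wnk1d/d* uteri. Its higher mean (ratio 1.26, log2 fold change 0.31, 95% interval 0.07 to 0.55) did not pass adjustment (limma adjusted p = 0.0682), and the adjusted p was 0.0259 without *Wnk1d/d* replicate 2. FPKM is scaled to gene length, so levels of the pair can be added. Of the summed *Irs1* and *Irs2* level, *Irs2* made up 17.8% ± 5.06 (SD, n = 4) in controls and 5.64% ± 3.28 (SD, n = 5) in *Wnk1d/d* uteri, while the sum was 13.5 ± 1.92 and 14.8 ± 1.61 FPKM. The annotation places 30.9% of the exon bases of *Irs1* under an antisense gene (*Gm9747*) and 2.56% of those of *Irs2* under another. No source states that counting used strand, so reads of such pairs cannot be told apart.

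**Figure D3:**
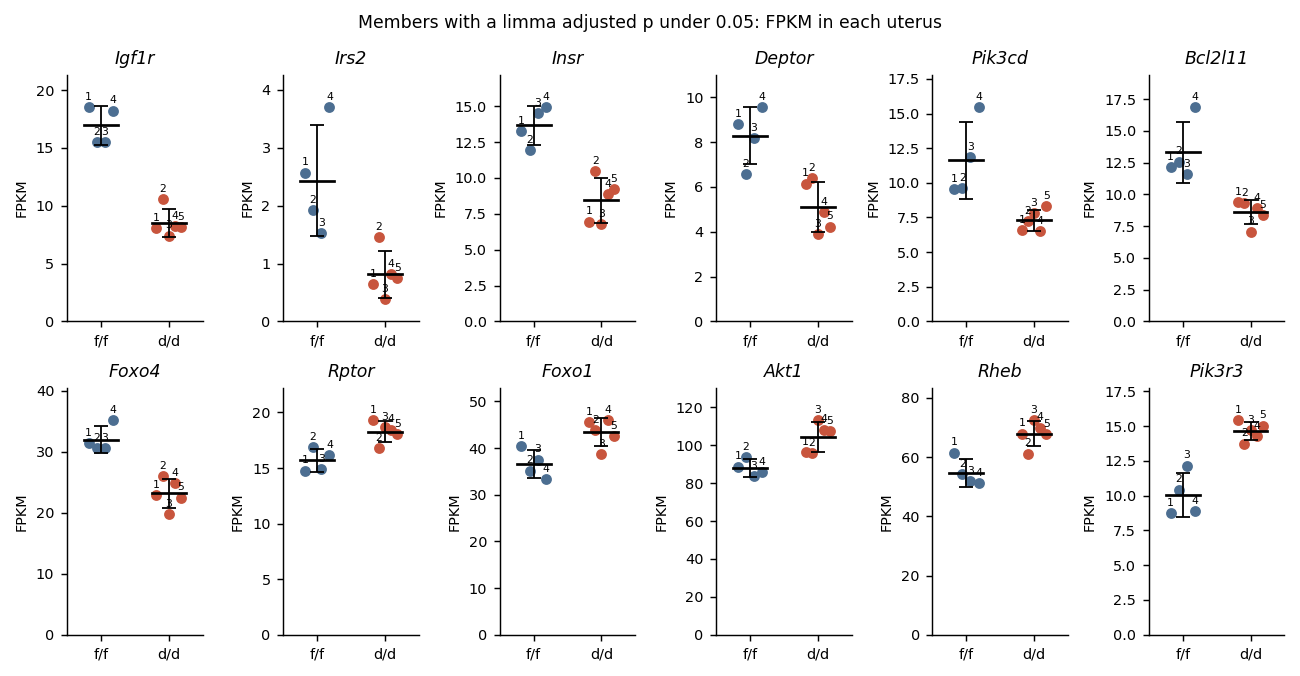
FPKM (y axis, from 0) of the 12 members with a limma adjusted p under 0.05 in each uterus, with replicate numbers, the mean as a thick line and the SD as bars (n = 4 *Wnk1f/f*, n = 5 *Wnk1d/d*). *Igf1r*, *Irs2*, *Insr*, *Deptor*, *Pik3cd*, *Bcl2l11* and *Foxo4* had no *Wnk1d/d* value above the lowest control value.

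Among the PI3K catalytic subunits only *Pik3cd* passed the test. It encodes the delta subunit, known mainly from leukocytes (chr4:149649168-149702571, minus strand), and had 9.57, 9.63, 11.9 and 15.5 FPKM in controls and 6.59, 7.24, 7.83, 6.54 and 8.31 FPKM in *Wnk1d/d* uteri. The genotypes did not overlap, and *Wnk1f/f* replicate 4, which had the highest leukocyte marker sum, was the highest library. The ratio was 0.627 (log2 fold change -0.59, SE 0.14, limma adjusted p = 0.0173), and without *Wnk1f/f* replicate 4 it was 0.705 (adjusted p = 0.0303), which is under the fold criterion. For comparison, the pan-leukocyte marker *Ptprc* had 11.03 to 25.86 FPKM in controls and 7.93 to 13.9 FPKM in *Wnk1d/d* uteri (ratio 0.66, limma adjusted p = 0.175). The summed leukocyte list had a ratio of 0.832. Of its 9 tested markers 8 had log2 fold changes below 0 and 1 (*Cd68*, ratio 1.30) above. *Pik3cg*, the gamma subunit that G protein-coupled receptors activate and that is also known from leukocytes, had 1.34 to 2.72 FPKM in controls and 1.67 to 2.52 FPKM in *Wnk1d/d* uteri (log2 fold change 0.09, 95% interval -0.23 to 0.42). The widely expressed alpha and beta subunits had log2 fold changes of -0.15 (*Pik3ca*, 95% interval -0.32 to 0.03) and 0.14 (*Pik3cb*, 95% interval -0.07 to 0.35). As a share of the summed level of the 4 catalytic genes, *Pik3cd* took 34.3% to 43.8% in controls and 24.5% to 32.9% in *Wnk1d/d* uteri, with no overlap, and *Pik3cb* took 12.5% to 17.6% and 17.5% to 21.8%.

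Of the regulatory subunits, which bind the docking proteins and hold the catalytic subunit, *Pik3r3* (gamma, chr4:116221618-116303056, plus strand) was higher. It had 8.77, 10.4, 12.2 and 8.91 FPKM in controls and 15.44, 13.75, 14.73, 14.31 and 15.04 FPKM in *Wnk1d/d* uteri. All *Wnk1d/d* libraries lay above all controls and closer together than the controls did. The ratio of 1.46 missed the fold criterion (log2 fold change 0.51, SE 0.09, limma adjusted p = 0.00777), and it was 1.56 without *Wnk1f/f* replicate 3. In the annotation 24.3% of the exon bases of *Pik3r3* are shared with *Gm49337* on the same strand, so a part of its reads could belong to that gene. *Pik3r1* (alpha) had a log2 fold change of -0.01 (95% interval -0.19 to 0.18) and *Pik3r2* (beta) one of -0.11 (95% interval -0.30 to 0.09). *Pik3r3* made up 11.9% ± 2.06 (SD, n = 4) of the summed regulatory level in controls and 16.99% ± 1.26 (SD, n = 5) in *Wnk1d/d* uteri, and the sum itself was 84.6 ± 2.04 and 86.5 ± 4.57 FPKM.

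At the AKT step the differences were small. *Akt1* (chr12:112653821-112674884, minus strand), with the highest level of all members, had 88.8, 93.9, 83.5 and 85.7 FPKM in controls and 96.5, 96.0, 113, 108 and 107 FPKM in *Wnk1d/d* uteri. The genotypes did not overlap, although *Wnk1f/f* replicate 2 and *Wnk1d/d* replicates 1 and 2 were close. The ratio was 1.19 (log2 fold change 0.24, SE 0.07, limma adjusted p = 0.0385). The adjusted p was 0.0755 to 0.0927 in 6 of the 9 fits that left out 1 library (*Wnk1f/f* replicates 1, 3 and 4 and *Wnk1d/d* replicates 3, 4 and 5). *Akt2*, the isoform best known for insulin-stimulated glucose uptake, had 21.8 to 27.7 FPKM in controls and 21.2 to 26.7 FPKM in *Wnk1d/d* uteri (log2 fold change -0.09, 95% interval -0.28 to 0.11), and its share of the pair went from 22.1% ± 1.47 to 18.4% ± 1.35, without overlap. *Pdpk1*, the kinase that phosphorylates AKT at the membrane, had 8.06 to 10.7 FPKM in controls and 9.8 to 13.4 FPKM in *Wnk1d/d* uteri (ratio 1.24, log2 fold change 0.29, 95% interval 0.05 to 0.52, limma adjusted p = 0.0775).

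Of the 4 phosphatases that oppose PI3K or AKT, 0 passed the limma test at an adjusted p under 0.05, where 22.1% of all genes passed. With so few genes a count of 0 is not a result about phosphatases. At an unadjusted p under 0.05 the count was also 0. *Inpp4b* and *Inpp5d* remove phosphates from the PI3K lipids, *Inpp5d* mainly in blood cells, and *Phlpp1* and *Phlpp2* remove them from AKT. All 4 had lower means in *Wnk1d/d* uteri, with log2 fold changes of -0.31 for *Inpp4b* (95% interval -0.70 to 0.08), -0.19 for *Inpp5d* (-0.50 to 0.13), -0.18 for *Phlpp1* (-0.37 to 0.01) and -0.11 for *Phlpp2* (-0.31 to 0.09). *Inpp4b* was the member with the lowest level, 0.68 to 1.7 FPKM in controls and 0.44 to 1.01 FPKM in *Wnk1d/d* uteri.

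**Figure D4:**
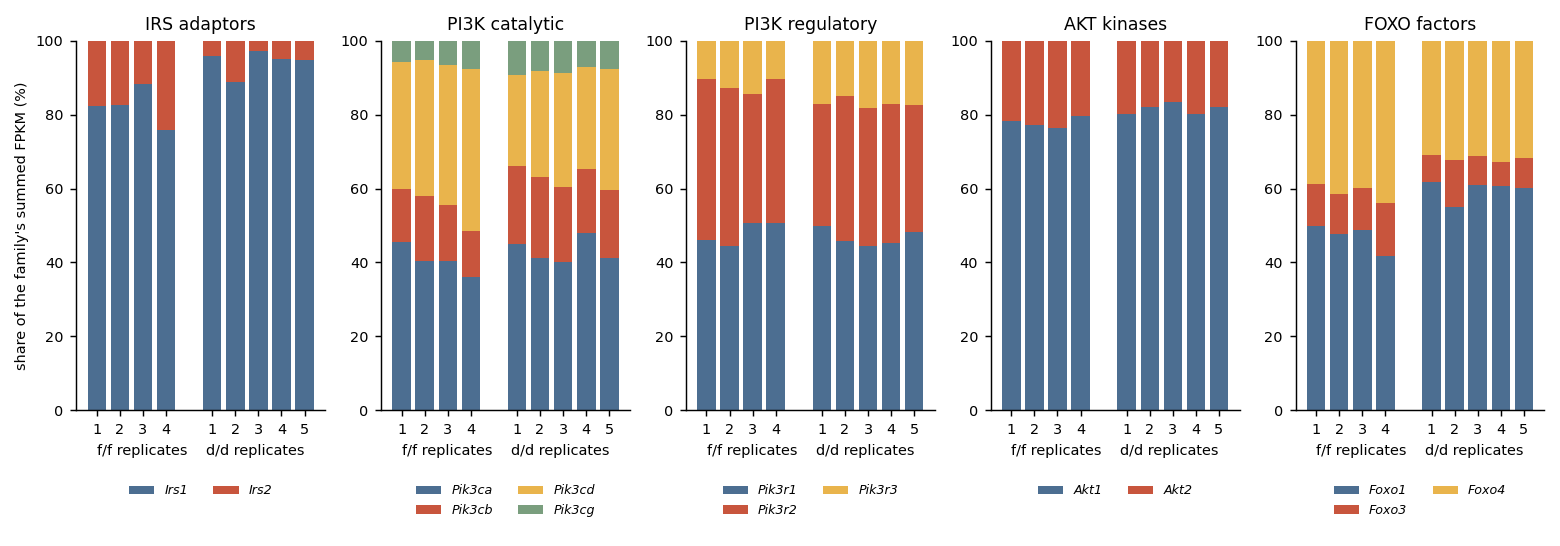
Share of each gene in the summed FPKM of its family (y axis, %) in each library, for the IRS adaptors, the PI3K catalytic and regulatory subunits, the AKT kinases and the FOXO factors. *Irs2* took 11.8% to 24.2% of the IRS sum in controls and 2.78% to 11.3% in *Wnk1d/d* uteri, and *Foxo1* took 41.8% to 49.9% of the FOXO sum in controls and 54.9% to 61.9% in *Wnk1d/d* uteri.

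The FOXO factors, which AKT phosphorylates, did not move together. *Foxo4* (chrX:101254528-101260873, plus strand) had 31.5, 30.6, 30.6 and 35.2 FPKM in controls and 22.9, 26.0, 19.8, 24.9 and 22.5 FPKM in *Wnk1d/d* uteri. All *Wnk1d/d* libraries were below all controls (ratio 0.726, log2 fold change -0.45, SE 0.08, limma adjusted p = 0.00863). *Foxo1* (chr3:52268336-52353221, plus strand) had 40.4, 35.2, 37.5 and 33.4 FPKM in controls and 45.6, 43.9, 38.6, 46.0 and 42.6 FPKM in *Wnk1d/d* uteri, a rise by 1.18 times with *Wnk1d/d* replicate 3 inside the control range. Its adjusted p of 0.0493 (limma, log2 fold change 0.24, SE 0.08) was 0.0628 to 0.13 in 7 of the 9 fits that left out 1 library, the exceptions being the fits without *Wnk1f/f* replicate 1 and *Wnk1d/d* replicate 3. *Foxo3* had 9.14, 7.83, 8.73 and 11.4 FPKM in controls and 5.21, 10.2, 5.06, 4.78 and 5.61 FPKM in *Wnk1d/d* uteri. In 4 of 5 *Wnk1d/d* libraries it was below every control, and replicate 2 was within the control range (ratio 0.666, log2 fold change -0.55, SE 0.19, limma adjusted p = 0.0657). Without that library the log2 fold change was -0.73 and the adjusted p 0.00362. *Foxo1* made up 47.1% ± 3.63 (SD, n = 4) of the summed level of the 3 factors in controls and 59.7% ± 2.78 (SD, n = 5) in *Wnk1d/d* uteri, and *Foxo4* 41.1% ± 2.28 and 31.9% ± 0.787, both without overlap, while the sum was 77.8 ± 3.34 and 72.7 ± 6.19 FPKM. An antisense gene covers 7.78% of the exon bases of *Foxo1*.

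Among the other AKT targets, *Bcl2l11*, which encodes the death-promoting protein BIM and holds the first element in its promoter, was lower. It lies at chr2:128126038-128162547 (plus strand) and had 12.1, 12.6, 11.6 and 16.9 FPKM in controls and 9.38, 9.3, 7.07, 8.9 and 8.35 FPKM in *Wnk1d/d* uteri. The genotypes did not overlap and *Wnk1f/f* replicate 4 was the highest library (ratio 0.646, log2 fold change -0.57, SE 0.12, limma adjusted p = 0.012). The limma adjusted p was 0.0235 without *Wnk1f/f* replicate 4 and 0.0282 without *Wnk1d/d* replicate 3, but the ratios of 0.711 and 0.675 then missed the fold criterion. *Bad*, another death-promoting gene of the same protein family, had 40.7 to 53.4 FPKM in controls and 48.4 to 54.0 FPKM in *Wnk1d/d* uteri (log2 fold change 0.18, 95% interval -0.01 to 0.36, limma adjusted p = 0.142), and its adjusted p was 0.0412 without *Wnk1f/f* replicate 2. The kinases *Gsk3a* and *Gsk3b* had log2 fold changes of 0.07 (95% interval -0.09 to 0.22) and 0.14 (-0.06 to 0.34). *Gsk3a* and *Bad* share 28.3% and 20.5% of their exon bases with genes on the opposite strand.

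At the mTOR step the clearest difference was in *Deptor*, which encodes an inhibitor bound to mTOR in both of its complexes. *Deptor* (chr15:55112317-55259271, plus strand) had 8.8, 6.59, 8.19 and 9.58 FPKM in controls and 6.15, 6.38, 3.89, 4.87 and 4.23 FPKM in *Wnk1d/d* uteri. The genotypes did not overlap, but *Wnk1d/d* replicate 2 and *Wnk1f/f* replicate 2 nearly met (ratio 0.616, log2 fold change -0.61, SE 0.15, limma adjusted p = 0.0195). Without *Wnk1f/f* replicate 4 the ratio was 0.649 and the adjusted p 0.0575. *Rptor*, the mTORC1 scaffold raptor, had 14.8 to 16.9 FPKM in controls and 16.8 to 19.3 FPKM in *Wnk1d/d* uteri, with only *Wnk1d/d* replicate 2 inside the control range (ratio 1.16, log2 fold change 0.21, SE 0.06, limma adjusted p = 0.0447). Its adjusted p was 0.0796 to 0.113 in 7 of the 9 fits that left out 1 library (*Wnk1f/f* replicates 1, 3 and 4 and *Wnk1d/d* replicates 1, 3, 4 and 5). *Mlst8*, a subunit of both complexes, had 12.2 to 12.8 FPKM in controls and 13.1 to 16.3 FPKM in *Wnk1d/d* uteri, without overlap but past the threshold (limma adjusted p = 0.0726) only without *Wnk1d/d* replicate 2 (0.0392) and with library weights. An opposite-strand gene, *Bricd5*, shares 22.5% of the exon bases of *Mlst8*. The kinase *Mtor* had a log2 fold change of -0.10 (95% interval -0.26 to 0.05), the mTORC2 scaffold *Rictor* one of -0.07 (-0.30 to 0.15) and the mTORC1 inhibitor *Akt1s1* one of -0.08 (-0.27 to 0.11).

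*Rheb*, the small GTPase that switches mTORC1 on, had 61.5, 54.1, 51.9 and 51.2 FPKM in controls and 67.9, 61.2, 72.5, 69.9 and 67.7 FPKM in *Wnk1d/d* uteri. The ranges met only between *Wnk1f/f* replicate 1 and *Wnk1d/d* replicate 2 (ratio 1.24, log2 fold change 0.31, SE 0.07, limma adjusted p = 0.0199). The adjusted p was 0.0576 without *Wnk1f/f* replicate 4 and 0.0507 without *Wnk1d/d* replicate 3. The genes of the complex that switches RHEB off did not pass, with log2 fold changes of 0.12 for *Tsc1* (95% interval -0.04 to 0.28) and -0.17 for *Tsc2* (-0.39 to 0.05). Of the 3 mTORC1 effectors, 0 passed the limma test (22.1% of all genes passed), and 0 had an unadjusted p under 0.05. The S6 kinases *Rps6kb1* and *Rps6kb2* had log2 fold changes of 0.08 (95% interval -0.10 to 0.25) and -0.07 (-0.31 to 0.18), and the translation repressor *Eif4ebp1* one of 0.04 (-0.28 to 0.37). The leukocyte gene *Ptprcap*, on the opposite strand, shares 23.7% of the exon bases of *Rps6kb2*. *Eif4ebp1* ranged from 51.1 to 87.0 FPKM within the controls, which was wider than the *Wnk1d/d* range of 55.4 to 73.5 FPKM.

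Among members that passed by adjusted p, *Wnk1d/d* replicate 2 had the highest value of its genotype for 5 of the 7 lower ones. It had the lowest value of its genotype for 4 of the 5 higher ones. Over the whole table this library was likewise the highest for 957 of the 1619 lower genes and the lowest for 903 of the 1630 higher genes.

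Beyond the members, 86 further genes of the pathway and its outputs were examined in 9 lists, of which 81 were tested. These lists were chosen with earlier results of these data known. Outside the list of FOXO targets, 62 were tested, 3 of them DEGs with higher and 8 with lower FPKM (12.9% lower, against 5.18% of all genes). Of 8 tested receptor adaptors, 2 were DEGs, both lower (25%, where 5.18% of all genes were lower DEGs). *Gab1*, a docking protein that binds PI3K, had 17.3 to 20.8 FPKM in controls and 8.23 to 11.3 FPKM in *Wnk1d/d* uteri (log2 fold change -0.86, SE 0.09, limma adjusted p = 0.00165). *Grb14*, an adaptor that inhibits the insulin receptor, had 9.11 to 11.5 FPKM and 3.78 to 6.8 FPKM (log2 fold change -0.94, SE 0.16, limma adjusted p = 0.00674). The genotypes did not overlap for either gene. By adjusted p, *Sh2b2*, an adaptor of the insulin receptor, was also lower (log2 fold change -0.36) and *Grb2*, which links receptors to RAS, higher (0.21). *Sh2b2* lost its call without *Wnk1f/f* replicate 4 (limma adjusted p = 0.0543) and *Grb2* in all fits that left out 1 library but those without *Wnk1f/f* replicate 2 and *Wnk1d/d* replicate 2 (0.0665 to 0.104).

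Of 7 other PI3K genes tested, 3 were DEGs (42.9%, against 10.3% of all genes), of which only *Pik3ip1* was a DEG in every fit that left out 1 library. *Pik3ip1*, a membrane protein that inhibits PI3K, had 51.0, 55.5, 39.9 and 66.0 FPKM in controls and 25.8, 33.1, 15.7, 23.7 and 23.4 FPKM in *Wnk1d/d* uteri. No *Wnk1d/d* value reached the lowest control (ratio 0.458, log2 fold change -1.11, SE 0.20, limma adjusted p = 0.00766). The regulatory partners of the gamma subunit went opposite ways: *Pik3r5* rose (ratio 1.54, log2 fold change 0.54, limma adjusted p = 0.0337) and *Pik3r6* fell (ratio 0.655, log2 fold change -0.47, limma adjusted p = 0.0248). Both calls were lost when single libraries were left out, for *Pik3r5* in 5 of 9 fits (*Wnk1f/f* replicates 1 and 2 and *Wnk1d/d* replicates 1, 3 and 5) and for *Pik3r6* in 4 (*Wnk1f/f* replicates 3 and 4 and *Wnk1d/d* replicates 3 and 5), with limma adjusted p of 0.0665 to 0.0819 and 0.0523 to 0.0632. Among 7 other inositol lipid phosphatases *Inpp5j* was a higher DEG (log2 fold change 0.44, limma adjusted p = 0.0111), with a ratio of 1.53 that was 1.47 without *Wnk1f/f* replicate 4 or *Wnk1d/d* replicate 2. *Inpp5k* (log2 fold change -0.49, limma adjusted p = 0.00968) and *Inpp5e* (-0.23, limma adjusted p = 0.0465) were lower, and *Inpp5e* was past the threshold in the fits without *Wnk1f/f* replicate 2 or *Wnk1d/d* replicate 2 and in none of the other 7 that left out 1 library.

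Of 8 AKT modulators tested, *Phlda3*, which competes with AKT for membrane lipids, was a higher DEG, with 18.5 to 21.0 FPKM in controls and 25.5 to 42.8 FPKM in *Wnk1d/d* uteri (ratio 1.82, log2 fold change 0.81, SE 0.15, limma adjusted p = 0.00929). *Trib2*, a pseudokinase that binds AKT, was lower (ratio 0.511, log2 fold change -0.90, SE 0.17, limma adjusted p = 0.00877), as was *Tbc1d4*, an AKT substrate of glucose transporter traffic (ratio 0.509, log2 fold change -0.88, SE 0.20, limma adjusted p = 0.0162). *Trib2* did not overlap between genotypes, and *Tbc1d4* did, through *Wnk1d/d* replicate 2. Of the SGK kinases, relatives of AKT, *Sgk3* was lower (log2 fold change -0.37, limma adjusted p = 0.0319) but not in 6 of the 9 fits that left out 1 library (0.0579 to 0.0838, without *Wnk1f/f* replicate 1 or 4 or any *Wnk1d/d* replicate other than 2). *Sgk1*, named here after its values were seen, varied from 15.5 to 39.7 FPKM within controls and from 22.8 to 63.9 FPKM within *Wnk1d/d* uteri and did not pass (limma adjusted p = 0.156).

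Of 19 genes of nutrient and stress input to mTORC1, 2 were DEGs, both lower (10.5%, against 10.3% of all genes in either direction and 5.18% lower). *Sesn1*, a sestrin that restrains mTORC1, had 77.7, 68.8, 62.6 and 79.1 FPKM in controls and 32.4, 53.7, 24.5, 35.7 and 33.0 FPKM in *Wnk1d/d* uteri. Only *Wnk1d/d* replicate 2 came near the controls, and it stayed below them (ratio 0.498, log2 fold change -1.03, SE 0.19, limma adjusted p = 0.00786). *Rhebl1*, a relative of *Rheb*, fell while *Rheb* rose (ratio 0.567, log2 fold change -0.75, SE 0.14, limma adjusted p = 0.00809). The stress-induced mTORC1 inhibitors *Ddit4* (log2 fold change -0.45, limma adjusted p = 0.0268) and *Ddit4l* (-0.44, limma adjusted p = 0.0161) were lower without meeting the fold criterion, and *Lamtor1*, which anchors mTORC1 to the lysosome, was higher (0.25, limma adjusted p = 0.026). *Ddit4* lost its call without *Wnk1f/f* replicate 2 or 3 or *Wnk1d/d* replicate 5 (0.0591 to 0.0614), and *Lamtor1* in 5 of 9 such fits (0.0555 to 0.0732, without *Wnk1f/f* replicate 1 or 4 or *Wnk1d/d* replicate 3, 4 or 5). Of the 5 mTORC2 partners, 0 passed by limma adjusted p (22.1% of all genes passed) and 3 had an unadjusted p under 0.05. Of 8 translation effectors, 0 were DEGs by limma (10.3% of all genes were) and 4 had an unadjusted p under 0.05. By adjusted p the cap-binding *Eif4e* (0.40, limma adjusted p = 0.0261) and the scaffold *Eif4g1* (0.40, limma adjusted p = 0.00837) rose and *Eif4b* fell (-0.39, limma adjusted p = 0.0136), and *Eif4e* lost its call in 6 of 9 fits that left out 1 library (0.0515 to 0.0726, without *Wnk1f/f* replicate 1 or 4 or any *Wnk1d/d* replicate other than 2).

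The longest of these lists held known target genes of FOXO factors. Because it was chosen with earlier results of these data known, its shares beside those of all genes are a description only. Of 25 listed, 24 were tested. Of these, 8 were DEGs with lower FPKM (33.3%, against 5.18% of all genes) and 1 with higher (against 5.09% of all genes). By adjusted p 12 were lower (50%) and 2 higher (8.33%), against 11.0% and 11.1% of all genes, and 10 did not pass. The median log2 fold change of the list was -0.47, against 0.00 for all genes. The share of DEGs in either direction, 37.5%, was equal to that of the AKT modulators and under that of the other PI3K genes, which are shorter lists. The list includes 5 members, of which *Insr*, *Irs2* and *Bcl2l11* were among the 8. Without *Irs2*, which was above 1 FPKM in the controls only, 7 lower DEGs remained among 23 genes, and the share of all genes under that restriction was not counted. Without the members, 19 were tested, 5 of them DEGs with lower FPKM (26.3%), and the median was -0.45. The lower count was 6 without *Wnk1f/f* replicate 4 and 12 without *Wnk1d/d* replicate 2. The whole table held 1039 and 1870 DEGs in those fits, in place of 1513. *Wnk1d/d* replicate 2 had the highest value of its genotype for 10 of the 12 listed genes that were lower by adjusted p. Of the factors themselves, *Foxo1* was higher, *Foxo4* lower and *Foxo3* not past the test, as given above. The endothelial, smooth muscle and stromal markers moved in these libraries too. Of 8 stromal markers, 6 were lower, all without overlap, and 2 higher, with a median log2 fold change of -0.58 for that list. The part of these shifts in the counts was not tested.

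The lower FOXO targets outside the members included genes of fasting metabolism, autophagy and cell cycle control. *Pdk4*, a kinase that spares glucose by inhibiting pyruvate dehydrogenase, had 7.98, 4.85, 5.66 and 7.86 FPKM in controls and 2.06, 4.9, 1.49, 2.39 and 2.83 FPKM in *Wnk1d/d* uteri. Only *Wnk1d/d* replicate 2 reached the control range (ratio 0.415, log2 fold change -1.06, SE 0.24, limma adjusted p = 0.0156). *Klf15*, a transcription factor of amino acid and glucose metabolism, had 24.95 to 34.44 FPKM in controls and 11.5 to 20.4 FPKM in *Wnk1d/d* uteri (log2 fold change -0.73, limma adjusted p = 0.0123). *Txnip*, which restrains glucose uptake, had 334 to 623 FPKM and 154 to 345 FPKM (log2 fold change -0.92, limma adjusted p = 0.0287), and its call was lost in 6 of 9 fits that left out 1 library (0.0521 to 0.0709, without *Wnk1f/f* replicate 1 or 4 or any *Wnk1d/d* replicate other than 2). The autophagy gene *Gabarapl1* (ratio 0.629, log2 fold change -0.67, limma adjusted p = 0.0135) and the cyclin gene *Ccng2* (ratio 0.64, log2 fold change -0.63, limma adjusted p = 0.00732) had no overlap, and both ratios missed the fold criterion without *Wnk1d/d* replicate 3 (0.669 and 0.678). The mitophagy genes *Bnip3* (log2 fold change -0.52, limma adjusted p = 0.00873) and *Pink1* (-0.40, limma adjusted p = 0.0165) and the gene of the cyclin kinase inhibitor *Cdkn1b* (-0.50, limma adjusted p = 0.0213) fell by less than the fold criterion, and *Cdkn1b* lost its call without *Wnk1f/f* replicate 1 or 4 or *Wnk1d/d* replicate 3 (0.0507 to 0.0616).

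The stress-induced cell cycle gene *Cdkn1a* moved opposite to most of the list. *Cdkn1a*, also a target of p53, had 7.8, 7.24, 7.5 and 8.63 FPKM in controls and 13.4, 19.6, 27.2, 31.6 and 24.5 FPKM in *Wnk1d/d* uteri. Every *Wnk1d/d* library was above every control (ratio 2.99, log2 fold change 1.41, SE 0.21, limma adjusted p = 0.00411). *Gadd45a*, which is likewise stress-induced, was higher by adjusted p (ratio 1.46, log2 fold change 0.56, limma adjusted p = 0.0363), a call lost in 5 of 9 fits that left out 1 library (0.0694 to 0.0806, without *Wnk1f/f* replicate 1 or 4 or *Wnk1d/d* replicate 1, 4 or 5). *Igfbp1*, an IGF-binding protein of the decidua, missed the filter and was not tested. It had 1.64, 0.8, 0.35 and 1.06 FPKM in controls and 0.02, 0.31, 0.06, 0.13 and 0.09 FPKM in *Wnk1d/d* uteri. The genotypes nearly met at 0.35 and 0.31 FPKM, and at such low values with unknown depth no difference is claimed. Of the 22 listed targets with a promoter entry, 3 held GTAAACA (*Bcl2l11*, *Trim63* and *Txnip*) and 3 held CAAAACA (*Ccng2*, *Igfbp1* and *Irs2*), again counted by gene and not by promoter. The element of *Txnip* is shown beside that of *Bcl2l11* above for comparison.
*Txnip*, chr3:96557825-96557853, plus strand, 121 bases before the start: ttggaggcctgGTAAACAagggccaagta

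**Figure D5:**
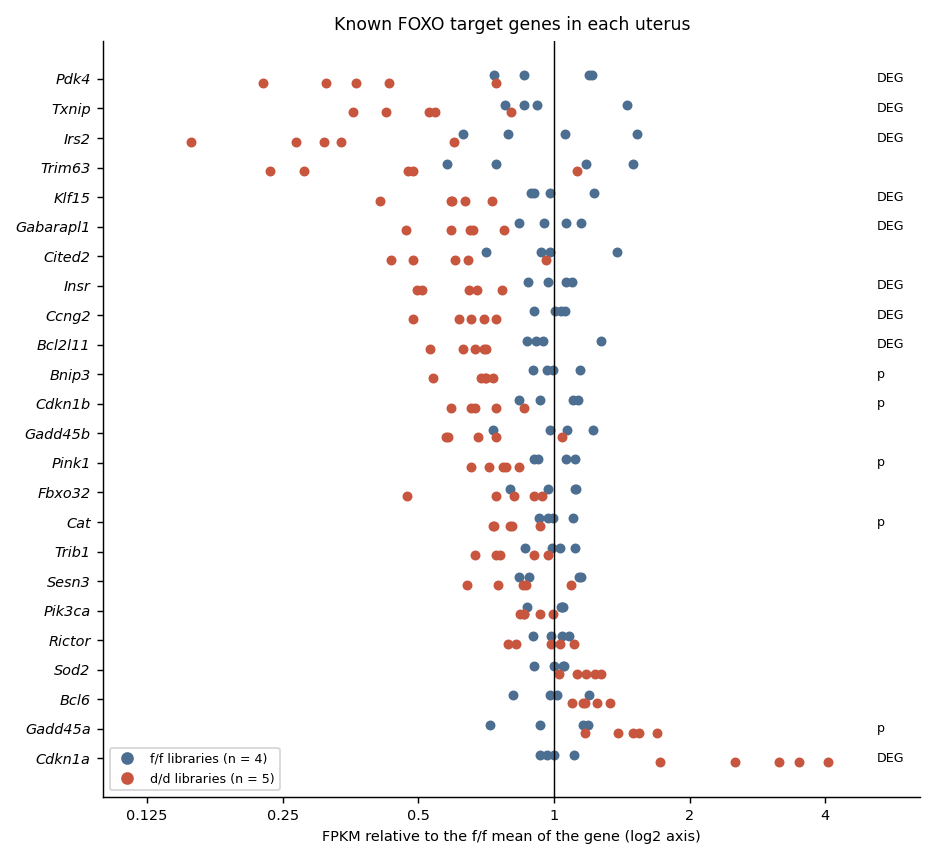
FPKM of the 24 tested FOXO target genes in each library relative to the mean of the 4 *Wnk1f/f* libraries (log2 axis). Genes are ordered by log2 fold change on the log2(FPKM + 1) scale and marked as DEG or as past the adjusted p alone (p). Most of the red *Wnk1d/d* points lie left of 1 for the upper genes, and *Cdkn1a* at the bottom lies right of 1 in all 5 libraries.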

How the data were processed

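RNA was extracted from the whole uterus of each mouse with TRIzol, and libraries were made with the TruSeq RNA kit and sequenced on a HiSeq system as 75 nt paired-end reads. The authors kept reads with a mean quality above 20, aligned them to mm10 with TopHat2 2.0.4, and deposited FPKM values for each of the 9 libraries, which the submitters' processing notes credit to Cufflinks 2.0.2. The study's methods name a later Cufflinks release for its tests. The gene annotation and any use of strand are not given in the sources used here. FPKM scaling makes genes of different length comparable but removes the depth, so that no counting intervals could be given.

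The deposited FPKM were put on the log2(FPKM + 1) scale. An unpaired, two-sided limma model (limma 3.58.1, R 4.3.3, moderated with an intensity trend) compared the genotypes, a step also tested on simulated data. Cuffdiff was not rerun because it needs reads. Figures and sequence searches used Python 3.11.15, pandas 2.3.3 and matplotlib 3.10.9. Coordinates and shared exon bases came from the GENCODE annotation of mm10, matched by symbol, and promoters from RefSeq.

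The members, the lists around them and the tests were chosen with earlier results of these data known. Every member is named. From the other lists every DEG is named, with at most 4 further genes per list that had the largest changes at an adjusted p under 0.05. *Sgk1* and *Igfbp1* were named outside this rule. Some genes of the pathway are not analysed here. Each library was a separate mouse, and replicate numbers of the genotypes belong to different mice. The alternatives changed the pseudocount (0.1 or 0.01), the filter (none, or 5 FPKM), the scaling (by medians or quantiles), the variance model (no trend, robust estimation or library weights) and the fold criterion, added a replicate block, or dropped single libraries. Counts of the other lists without *Wnk1f/f* replicate 4 or *Wnk1d/d* replicate 2 were added after seeing the data.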

Additional observations from a re-analysis of the deposited data

Results flagged for a closer look

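In 9 of 142 groups (71 genes in 2 genotypes), 1 library lay farther from the rest of its genotype than Dixon's 95% value allows, where chance gives about 7.1. Of these, 4 were among the 74 groups of members. *Wnk1d/d* replicate 2 was the highest of its genotype for *Igf1r* (10.58 FPKM, next 8.21), *Foxo3* (10.17, next 5.61), *Inpp5e* (13.36, next 11.58) and *Tbc1d4* (9.85, next 5.83), and the lowest for *Lamtor1* (41.74, next 47.74), and in all of these it was the library nearest the controls. *Pik3ca* was lowest in *Wnk1f/f* replicate 2 (10.59 FPKM, next 12.61) and *Phlda3* highest in the same library (20.99, next 18.65). *Rps6kb2* was lowest in *Wnk1d/d* replicate 1 (13.06 FPKM, next 17.64) and *Bnip3* in *Wnk1d/d* replicate 3 (6.36, next 8.11).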

How the results depend on the processing

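All 12 members called by adjusted p kept their direction in every alternative in which they were tested (19, or 18 for *Irs2*, which a filter at 5 FPKM removed). With each library left out in turn, the members held 0 to 1 higher and 3 to 7 lower DEGs and 1 to 6 higher calls by adjusted p, and the whole table held 1019 to 1870 DEGs. A replicate block, which treats equal replicate numbers as pairs, left 1 lower DEG and 1 lower call by adjusted p (*Igf1r* in both), 0 higher calls, and 218 DEGs in the whole table in place of 1513. The numbers belong to different mice. After the genotype mean of each gene was subtracted, the correlations of same-numbered libraries were -0.27 to 0.02. On these deviations no control correlated best with its own number. A ratio of at least 2 left 1 lower DEG (*Irs2*) and 550 in the whole table, and no fold criterion gave 5 higher DEGs and 3249 in all. Higher calls by adjusted p numbered 3 with no filter on low FPKM, 3 with quantile normalization and 3 without trend, since *Foxo1* and either *Akt1* (quantiles) or *Rptor* lost their calls. *Foxo1* was called in 5, *Rptor* in 9, *Akt1* in 11 and *Rheb* in 16 of 19 alternatives. Directions reversed only for members near 0 and not called: *Pik3r1* (8e-04 with median scaling, -0.0549 to 0.0356 with libraries left out), *Rps6kb2* (0.0051 with library weights, -0.1063 to 0.0253), *Eif4ebp1* (-0.0354 with quantile normalization, -0.0634 to 0.1881) and *Pik3cg* (-0.0064 to 0.2165). FOXO target DEGs with lower FPKM numbered 6 to 12 without *Wnk1f/f* replicate 4 or *Wnk1d/d* replicate 2. The other lists held 7 to 8 lower and 2 higher DEGs in those fits. No scaling moved the median of all genes by over 0.02 on the log2 scale. Depth is unknown, which limits statements on genes near 1 FPKM such as *Irs2* and *Inpp4b*. The cause of the differences between alternatives was not tested.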

Other observations

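In 3 families of the pathway without a called member, the shares were close between genotypes. *Gsk3a* took 78.7% ± 2.84 (SD, n = 4) of the summed GSK3 level in *Wnk1f/f* and 77.7% ± 2.40 (SD, n = 5) in *Wnk1d/d* uteri. *Rps6kb2* took 64.4% ± 1.84 and 61.8% ± 4.43 of the S6 kinase level. *Phlpp2* took 49.1% ± 2.72 and 50.5% ± 2.79 of the PHLPP level. By level in controls, *Akt1* (88.0 FPKM), *Eif4ebp1* (65.5), *Akt1s1* (62.9) and *Rheb* (54.7) were the most abundant members, and *Inpp4b* (1.13), *Pik3cg* (1.92) and *Irs2* (2.43) the least.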
